A study of Mus musculus with 32 samples.

Results

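Untreated 5xFAD mice were compared with WT mice in the hippocampus, across all genes expressed there. The comparison used 8 of the 32 samples of the series: 4 hippocampus samples of WT mice and 4 of untreated 5xFAD mice, each the RNA of an individual hippocampus. The fit behind the calls also held 4 light-treated 5xFAD hippocampus samples, which inform the spread. Genes were kept when they reached an FPKM (fragments scaled to transcript length and to library size) of at least 1 in at least 3 of these 8 samples, which left 12772 of 22337 genes. All mice were males of 6 months on a C57BL/6J background. The WT mice were littermates without the transgenes. 5xFAD mice carry human transgenes that include mutated APP and are driven by regulatory sequence of the mouse gene Thy1, so that they act mainly in neurons and APP is made above its normal amount. The series also measured meninges, lymphatic endothelial cells sorted from the meninges, and 5xFAD mice treated with light, in a study of whether light acting on meningeal lymphatic vessels changes brain disease in these mice. Per the study's methods, control mice were also anesthetized and shaved, then placed under indoor lighting in place of the light treatment. Whether the WT mice sampled here went through this is not stated. Hereafter, 5xFAD stands for the untreated mice, and values of 4 samples are given in the order of replicates 1 to 4.

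In 5xFAD mice the amyloid-beta peptide, which beta- and gamma-secretase release from APP, collects into plaques in cortex and hippocampus. Microglia, the resident macrophages of the brain, gather at plaques and switch on a set of phagocytic, lysosomal and lipid-handling genes under the receptor Trem2, while astrocytes nearby become reactive and raise Gfap. The hippocampus itself is built from granule neurons of the dentate gyrus and pyramidal neurons of the CA fields, with inhibitory interneurons, glia, vessels and choroid plexus close by.

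Total counts were 23856476, 17921658, 14726383 and 19247036 in the WT samples and 20232921, 22190051, 13952825 and 18011731 in the 5xFAD samples, and between 16371 and 17274 genes had a count above 0. Neurod6, a transcription factor of pyramidal neurons, marked all 8 samples as forebrain tissue with 147, 148, 199.6 and 151 FPKM in WT and 127, 130.0, 38.7 and 127 FPKM in 5xFAD. The value of 5xFAD replicate 3 was the lowest and stood far from the other 7. That library stood apart in other ways. Mitochondrial transcripts took 5.42, 5.57, 6.80 and 5.62 percent of the counts in WT and 5.76, 6.58, 10.7 and 4.19 percent in 5xFAD, replicate 3 the highest (exact p = 0.714 between the groups). Its summed FPKM of neocortex markers (most abundant gene Lamp5) was 277, against 103, 89.8, 85.3 and 101 in WT. That rank rested on Lamp5. Without it, a choice made after the values were seen, the sums were 121, 64.5, 108 and 98.9 in 5xFAD, replicate 1 highest. In WT they were then 73.0, 61.8, 54.8 and 68.3. Markers of leptomeningeal fibroblasts summed to 477 in 5xFAD replicate 3, against 228 to 269.7 FPKM in the other 5xFAD samples. Replicate 1 of 5xFAD had the highest Gfap. Counts without each library are therefore given where they matter.

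Most of the change lay in 1 direction. In the fit of all tested genes, 525 genes (4.11% of 12772) were higher in 5xFAD at an adjusted p below 0.05 and at least 2-fold, and 6 (0.0470%) were lower. Without the fold limit, 814 genes (6.37%) rose and 257 (2.01%) fell. In a fit of only the 8 compared samples, 472 rose and 1 fell past 2-fold, and 669 rose and 100 fell without the limit. Genes that rose did so by a median log2 fold change of 1.29, and genes that fell by a median of -0.47, beside 0.01 for all tested genes. Increases of at least 4-fold were found for 190 genes, at least 8-fold for 55 and at least 16-fold for 19. Every 5xFAD sample lay above every WT sample for 1102 genes (8.63%) and below every WT sample for 750 (5.87%). In bulk tissue, more cells of a type and more RNA per cell cannot be told apart, so each value is a level in the tissue.

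The filter let genes in through either group. Of all tested genes, 522 reached it in 5xFAD and not in WT, and 235 of them rose. A gene silent in WT had to differ to be tested at all. The reverse held for 193, and 6 of them fell. Of the 525 genes higher past 2-fold, 215 had a mean WT FPKM below 1. Among the 12042 genes that pass on the WT samples alone, 577 (4.79%) rose and 257 (2.13%) fell, 295 and 6 of them past 2-fold. Counts of gene lists are therefore given both ways where the calls differ. The share of a list that rose or fell is set beside that of all tested genes. The lists share members, so their counts are not separate.

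Libraries weighed more on the lower than on the higher genes. Without 5xFAD replicate 3, the library that stood apart, 539 genes rose past 2-fold and 5 fell, and 826 rose and 278 fell without the fold limit. The 257 lower genes became 134 without 5xFAD replicate 1, 643 without 5xFAD replicate 4, and 104, 127, 96 and 82 without WT replicates 1, 2, 3 and 4. The 6 genes lower past 2-fold became 2 without 5xFAD replicate 1, 46 without 5xFAD replicate 2 and 21 without 5xFAD replicate 4, and 1, 3 and 3 without WT replicates 1, 3 and 4. Replicate 1 of 5xFAD was the highest of the 8 samples for 497 of the 814 higher genes, and replicate 3 the lowest for 157 of the 257 lower genes.

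Thy1, whose regulatory sequence drives the transgenes, bears on the genotype labels. It was at 186, 170.3, 181 and 189 FPKM in WT and 622, 439, 407 and 573 FPKM in 5xFAD. The 4 5xFAD samples lay well above the 4 WT samples, replicate 1 highest and replicate 3 lowest, with a log2 fold change of 1.52 ± 0.14 (SE), adjusted p = 2.83e-05. Mouse App, the endogenous gene of the amyloid precursor, was at 233, 219, 205 and 213 FPKM in WT and 170.2, 196, 194 and 192 FPKM in 5xFAD. All 5xFAD samples lay below all WT samples, replicate 1 lowest, but the log2 fold change of -0.19 ± 0.08 (SE), adjusted p = 0.169 did not pass the test. Psen2, which encodes a subunit of gamma-secretase, was at 8.50, 9.08, 6.78 and 9.35 FPKM in WT and 7.90, 9.22, 7.82 and 10.9 FPKM in 5xFAD, with overlapping groups (adjusted p = 0.514). The list of the transgene check and amyloid processing had 16 tested genes, among them secretase subunits and the amyloid-degrading enzyme Ide. Thy1, listed for its regulatory sequence, alone passed the test (6.25% higher, beside 6.37% of all tested genes). The other 15 did not pass, and the median log2 fold change was 0.04. The higher count was 2 without 5xFAD replicate 2 and 1 to 2 in the 9 other alternatives (1 with the 8 samples only). The lower count was 1 without 5xFAD replicate 4 and 0 to 2 in the 9 other alternatives (0 with the 8 samples only). The human transgenes were not analysed here.

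**Figure D1:**
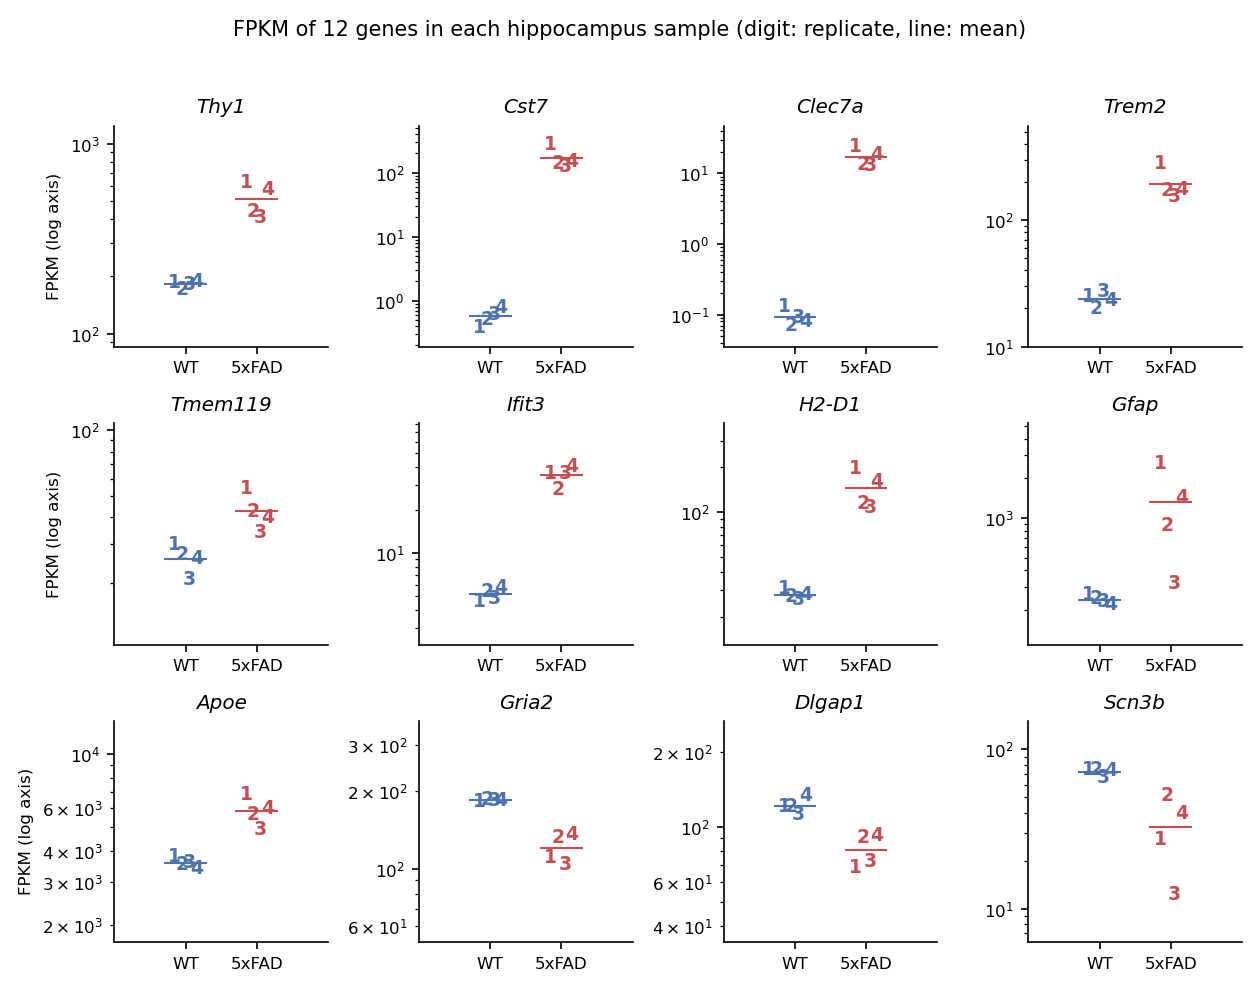
FPKM (y axis, logarithmic, own range in each panel) of 12 genes in the WT (blue) and untreated 5xFAD (red) hippocampus samples; each digit is the sample with that replicate number and each line the group mean. All 12 genes have groups that do not overlap: Thy1 through Apoe are higher in 5xFAD, Gria2, Dlgap1 and Scn3b lower.

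Genes that microglia switch on around plaques were among the largest increases. Cst7, which encodes cystatin F, an inhibitor of lysosomal cathepsins, was at 0.38, 0.50, 0.61 and 0.78 FPKM in WT and 271, 140.0, 125 and 149.8 FPKM in 5xFAD. All 5xFAD samples were far above WT and replicate 1 was the highest, with a log2 fold change of 8.28 ± 0.50 (SE), adjusted p = 4.54e-06. Clec7a, the phagocytic receptor dectin-1, was at 0.13, 0.07, 0.09 and 0.08 FPKM in WT and 23.8, 13.3, 13.02 and 18.4 FPKM in 5xFAD. It was near 0 in each WT sample and replicates 1 and 4 were the highest of 5xFAD (log2 fold change of 6.96 ± 0.35 (SE), adjusted p = 2.53e-07). Itgax, the integrin subunit CD11c, was at 0.01, 0.00, 0.08 and 0.05 FPKM in WT and 2.97, 1.52, 2.46 and 3.49 FPKM in 5xFAD, again without overlap (log2 fold change of 6.21 ± 0.51 (SE), adjusted p = 1.82e-05). Trem2, the lipid-sensing receptor of this response, was at 25.04, 19.9, 27.2 and 23.1 FPKM in WT and 280.5, 170.4, 154 and 174 FPKM in 5xFAD. Replicate 1 was again the highest of the 5xFAD samples, which lay close together otherwise (log2 fold change of 3.05 ± 0.30 (SE), adjusted p = 6.02e-05). Its signalling adaptor Tyrobp was at 71.2, 82.2, 90.5 and 76.9 FPKM in WT and 782, 543, 454 and 493 FPKM in 5xFAD, replicate 1 highest and all 4 above WT (log2 fold change of 2.84 ± 0.29 (SE), adjusted p = 6.02e-05).

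Across the plaque-induced microglia list, 33 of 42 tested genes rose (78.6%, beside 6.37%), 0 fell and 9 did not pass, with a median log2 fold change of 1.66 beside 0.01 for all genes. Over the 35 members that pass on the WT samples alone, 26 rose and the median was 1.38. The list also holds the secreted Lgals3bp (log2 fold change of 2.56 ± 0.20 (SE), adjusted p = 1.81e-05) and the chemokine Ccl6 (log2 fold change of 3.87 ± 0.29 (SE), adjusted p = 1.50e-05). Igf1, a growth factor that these microglia make, was at 1.85, 1.92, 2.30 and 3.09 FPKM in WT and 15.4, 9.86, 8.09 and 7.90 FPKM in 5xFAD. The groups did not overlap, and its mean FPKM rose 4.50-fold while its counts rose 2.71-fold (log2 fold change of 1.44 ± 0.22 (SE), adjusted p = 0.001).

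Genes of the list for resting (homeostatic) microglia rose as well. P2ry12, the purinergic receptor that marks surveying microglia, was at 45.7, 40.8, 46.1 and 42.5 FPKM in WT and 66.6, 64.9, 75.9 and 66.8 FPKM in 5xFAD. Replicate 3 was the highest and the groups did not overlap, though the change was small beside those of the plaque-induced genes (log2 fold change of 0.71 ± 0.14 (SE), adjusted p = 0.00544). Tmem119, a membrane protein of resident microglia, was at 29.8, 26.8, 20.7 and 25.8 FPKM in WT and 53.9, 42.4, 33.8 and 39.9 FPKM in 5xFAD, all 5xFAD samples above all WT samples (log2 fold change of 0.73 ± 0.17 (SE), adjusted p = 0.0180). Its call was lost without WT replicate 3 or 4 or 5xFAD replicate 1 (adjusted p from 0.0530 to 0.0721). Cx3cr1, the fractalkine receptor, was at 24.3, 23.5, 22.7 and 23.2 FPKM in WT and 64.4, 46.8, 45.7 and 69.8 FPKM in 5xFAD, with replicates 1 and 4 higher than 2 and 3 (log2 fold change of 1.29 ± 0.16 (SE), adjusted p = 1.58e-04). In all, 28 of 32 tested genes of the list rose (87.5%, beside 6.37%) and 0 fell, with a median of 1.23. Of the 30 that pass on WT alone, 26 rose. The largest change in the list was that of Gpr84, a receptor for medium-chain fatty acids, at 0.48, 0.60, 0.43 and 0.30 FPKM in WT and 11.2, 4.10, 4.04 and 5.64 FPKM in 5xFAD (log2 fold change of 3.81 ± 0.39 (SE), adjusted p = 6.02e-05). Gpr84 was below 1 FPKM in every WT sample, so it does not mark resting microglia here. The lectin Siglech was at 26.4, 23.6, 31.4 and 30.6 FPKM in WT and 95.1, 70.6, 76.3 and 86.8 FPKM in 5xFAD, replicate 1 highest and no overlap (log2 fold change of 1.48 ± 0.16 (SE), adjusted p = 6.02e-05).

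Complement genes, which tag debris and synapses for uptake, rose for 12 of 17 tested members (70.6%, beside 6.37%) and fell for 0, median 1.39 (9 of 13 on WT alone, beside 4.79%). C3ar1, a receptor for a fragment of complement C3, was at 0.85, 0.73, 0.82 and 0.57 FPKM in WT and 8.75, 4.09, 3.98 and 6.15 FPKM in 5xFAD. Replicates 1 and 4 were above 2 and 3, and all 4 above WT (log2 fold change of 2.97 ± 0.29 (SE), adjusted p = 4.65e-05). Itgb2, the beta chain of the complement-binding integrins, was at 2.78, 2.99, 2.54 and 2.32 FPKM in WT and 17.1, 8.20, 8.77 and 14.8 FPKM in 5xFAD, replicates 1 and 4 again the highest (log2 fold change of 2.17 ± 0.23 (SE), adjusted p = 6.02e-05). The subunits of C1q that start the classical pathway, C1qa, C1qb and C1qc, were among the genes that rose.

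Receptors for the Fc part of antibodies and inhibitory leukocyte receptors rose for 20 of 23 tested members (87.0%, beside 6.37%) and fell for 0, median 1.90 (15 of 17 on WT alone, beside 4.79%). Fcgr3, an activating receptor for IgG, was at 19.9, 23.98, 22.9 and 17.4 FPKM in WT and 109, 91.5, 80.5 and 109.9 FPKM in 5xFAD. The 5xFAD samples were about level with each other and all above WT (log2 fold change of 2.23 ± 0.20 (SE), adjusted p = 2.83e-05). Ptpn6, the phosphatase that inhibitory receptors recruit, was at 3.20, 3.21, 3.25 and 2.61 FPKM in WT and 20.9, 10.9, 11.1 and 16.4 FPKM in 5xFAD, replicate 1 highest and no overlap (log2 fold change of 2.29 ± 0.24 (SE), adjusted p = 6.02e-05). Lair1, an inhibitory receptor for collagen, was at 6.34, 5.39, 4.17 and 5.16 FPKM in WT and 25.99, 18.7, 17.2 and 21.4 FPKM in 5xFAD (log2 fold change of 1.90 ± 0.16 (SE), adjusted p = 1.82e-05). Its 5xFAD samples too lay apart from WT.

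Toll-like receptors and their adaptors, which sense microbial and danger signals, rose for 8 of 12 tested members (66.7%, beside 6.37%) and fell for 0, median 1.45. On WT alone 3 of 7 rose. Cd14, the co-receptor for lipopolysaccharide, was at 4.12, 2.68, 1.87 and 2.05 FPKM in WT and 29.7, 16.5, 12.8 and 17.2 FPKM in 5xFAD, with replicate 1 above the rest and no overlap (log2 fold change of 2.84 ± 0.30 (SE), adjusted p = 7.26e-05). Tlr2, which binds bacterial lipoproteins, was at 0.22, 0.47, 0.93 and 0.32 FPKM in WT and 10.01, 3.87, 3.26 and 3.70 FPKM in 5xFAD. Replicate 1 was far above the other 5xFAD samples, and these were above WT (log2 fold change of 3.49 ± 0.49 (SE), adjusted p = 5.67e-04).

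Among chemokines and cytokines, 10 of 18 tested members rose (55.6%, beside 6.37%) and 1 fell, median 1.15. Many of these were close to silent in WT: of the 11 that pass on WT alone, 3 rose and the median was 0.08. Ccl3, a chemokine of activated macrophages, was at 0.16, 0.00, 0.17 and 0.13 FPKM in WT and 13.4, 10.1, 4.18 and 3.86 FPKM in 5xFAD. Replicates 1 and 2 were higher than 3 and 4, and all were above WT (log2 fold change of 5.99 ± 0.72 (SE), adjusted p = 1.58e-04). Its neighbour Ccl4 was at 0.31, 0.42, 0.10 and 0.31 FPKM in WT and 12.5, 9.31, 3.48 and 2.90 FPKM in 5xFAD, in the same order (log2 fold change of 4.58 ± 0.60 (SE), adjusted p = 2.89e-04). Cxcl10, a chemokine that interferon induces and that attracts T cells, was at 0.69, 0.55, 0.24 and 0.19 FPKM in WT and 19.5, 4.41, 5.35 and 8.84 FPKM in 5xFAD, with replicate 1 the highest (log2 fold change of 4.46 ± 0.59 (SE), adjusted p = 3.16e-04). Cx3cl1, the neuronal ligand of Cx3cr1 and the gene of the list that fell, was at 239.9, 236, 223 and 237 FPKM in WT and 184, 187, 173 and 184 FPKM in 5xFAD. It was even within each group and lower in every 5xFAD sample (log2 fold change of -0.34 ± 0.08 (SE), adjusted p = 0.0161). Cx3cl1 lost its call without WT replicate 4 (adjusted p = 0.0569).

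Other genes among the 12 named for the largest increases act on immune cells or in the matrix. Hcar2, a receptor for niacin and beta-hydroxybutyrate, was at 0.04, 0.06, 0.10 and 0.05 FPKM in WT and 7.86, 2.15, 1.23 and 1.70 FPKM in 5xFAD. Replicate 1 stood far above the others, which were all above WT (log2 fold change of 5.69 ± 0.76 (SE), adjusted p = 3.32e-04). Ly9, a receptor of the SLAM family on leukocytes, was at 0.16, 0.20, 0.19 and 0.05 FPKM in WT and 6.27, 2.61, 2.02 and 5.99 FPKM in 5xFAD, replicates 1 and 4 highest (log2 fold change of 4.94 ± 0.51 (SE), adjusted p = 6.02e-05). Pdcd1, the inhibitory receptor PD-1, was at 0.09, 0.09, 0.21 and 0.03 FPKM in WT and 4.20, 1.51, 2.31 and 1.33 FPKM in 5xFAD, without overlap (log2 fold change of 4.59 ± 0.60 (SE), adjusted p = 2.62e-04). Timp1, an inhibitor of matrix metalloproteinases that reactive astrocytes make, was at 0.25, 0.53, 0.30 and 0.12 FPKM in WT and 21.8, 3.01, 3.16 and 0.95 FPKM in 5xFAD. Replicate 1 held most of that level and replicate 4 was closest to WT (log2 fold change of 4.66 ± 0.93 (SE), adjusted p = 0.00712). These sizes rest on few WT reads: the summed WT count was 15 for Clec7a, 10 for Itgax, 7 for Ccl3, 9 for Hcar2 and 42 for Cst7, so the fitted fold changes of genes this low depend on the fit's prior count.

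Antigen presentation rose in both classes. Of the MHC class I genes, 16 of 20 tested rose (80.0%, beside 6.37%) and 0 fell, median 1.08 (14 of 18 on WT alone, beside 4.79%). B2m, the shared light chain of class I molecules, was at 187, 198, 238 and 186 FPKM in WT and 962, 666, 873 and 689 FPKM in 5xFAD. Its lowest 5xFAD sample was well above its highest WT sample (log2 fold change of 2.00 ± 0.21 (SE), adjusted p = 6.02e-05). H2-D1, a classical class I heavy chain, was at 31.1, 27.4, 25.97 and 28.04 FPKM in WT and 197, 114, 108 and 159.9 FPKM in 5xFAD, replicates 1 and 4 above 2 and 3 (log2 fold change of 2.38 ± 0.25 (SE), adjusted p = 6.25e-05). Of the class II genes, 9 of 12 tested rose (75.0%, beside 6.37%) and 0 fell, median 2.17 (6 of 9 on WT alone, beside 4.79%). H2-Ob, a chain of the peptide-loading regulator H2-O, was at 0.38, 0.54, 0.35 and 0.39 FPKM in WT and 3.92, 1.91, 1.80 and 2.84 FPKM in 5xFAD, without overlap (log2 fold change of 2.76 ± 0.27 (SE), adjusted p = 4.65e-05). Ctss, the protease that trims the invariant chain, was at 115, 108, 118 and 101 FPKM in WT and 727, 400.4, 379 and 464 FPKM in 5xFAD. Replicate 1 was the highest and all 5xFAD samples were above WT (log2 fold change of 2.17 ± 0.24 (SE), adjusted p = 1.10e-04). Among the class II calls, H2-Ab1 lost its call without WT replicate 1, 2, 3 or 4 or 5xFAD replicate 1, 2 or 3 (adjusted p from 0.0556 to 0.129) and in 1 other alternative. Cd74 lost its call without WT replicate 1, 3 or 4 or 5xFAD replicate 1 or 3 (adjusted p from 0.0558 to 0.102) and in 1 other alternative. H2-Q7, Tapbpl and Psme2 of class I also lost theirs in some alternatives. Class I heavy chains, the Ifit genes, Lilrb4a and the Ccl chemokines have near-identical copies, and overlapping or antisense genes may share reads, so the split of counts among such genes is uncertain.

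Interferon-stimulated genes rose almost throughout the list. Ifit3, an antiviral effector, was at 4.56, 5.37, 4.81 and 5.72 FPKM in WT and 35.7, 27.8, 36.1 and 40.3 FPKM in 5xFAD. All 5xFAD samples were far above WT, replicate 2 the lowest of them (log2 fold change of 2.78 ± 0.20 (SE), adjusted p = 1.16e-05). Usp18, which removes the modifier Isg15 and restrains interferon signalling, was at 0.56, 0.74, 0.53 and 0.43 FPKM in WT and 7.38, 6.44, 6.26 and 4.97 FPKM in 5xFAD (log2 fold change of 3.48 ± 0.30 (SE), adjusted p = 1.92e-05). Oasl2, of the oligoadenylate synthetase family, was at 0.42, 0.76, 0.81 and 0.87 FPKM in WT and 11.8, 4.44, 6.00 and 12.9 FPKM in 5xFAD, with replicates 1 and 4 higher than 2 and 3 (log2 fold change of 3.37 ± 0.32 (SE), adjusted p = 3.95e-05). In each of these genes the groups lay apart. Ifi204, of a family of nucleic acid sensors, was at 0.05, 0.00, 0.13 and 0.05 FPKM in WT and 2.62, 1.60, 2.37 and 2.00 FPKM in 5xFAD, near 0 in WT and lowest of 5xFAD in replicate 2 (log2 fold change of 5.32 ± 0.55 (SE), adjusted p = 6.02e-05). In all, 39 of 42 tested members rose (92.9%, beside 6.37%) and 0 fell, with a median of 2.19, and 12 of the 54 listed genes were below the filter. Over the 20 members that pass on WT alone, 17 rose with a median of 1.82. The transcription factors Irf7 and Irf9 of the pathway were among the genes that rose.

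Since these genes moved together, their promoters were read for the core of the interferon response element, GAAANNGAA on either strand, in the 250 bases before the gene start (RefSeq, GRCm38.p6). It was found in 23 of 40 matched genes of the list (57.5%), in 14.6% of genes that rose past 2-fold, in 7.46% of genes that fell, in 7.18% of the 10123 tested genes with a promoter and in 8.18% of all promoters. A match is a description of letters, not a tested site. The 60 bases around the match nearest the gene start are shown for the 6 members with the smallest adjusted p among those that hold it, with matches in capitals. They lie at chr19:34583401-34583460 for Ifit3, chr19:34640779-34640838 for Ifit1, chr11:58199496-58199555 for Igtp, chr5:120907526-120907585 for Oas1a, chr19:34607797-34607856 for Ifit3b and chr3:142530258-142530317 for Gbp7, each printed 5′ to 3′ on the strand of the gene (minus for Oas1a, plus for the others).
Ifit3: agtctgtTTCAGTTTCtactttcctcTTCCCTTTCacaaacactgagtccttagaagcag
Ifit1: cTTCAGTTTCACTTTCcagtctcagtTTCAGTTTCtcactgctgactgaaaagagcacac
Igtp: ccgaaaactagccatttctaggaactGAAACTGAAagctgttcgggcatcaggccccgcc
Oas1a: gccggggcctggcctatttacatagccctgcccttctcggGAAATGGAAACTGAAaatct
Ifit3b: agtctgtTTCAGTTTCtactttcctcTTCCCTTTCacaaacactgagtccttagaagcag
Gbp7: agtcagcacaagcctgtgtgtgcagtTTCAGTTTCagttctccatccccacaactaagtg
Ifit1 and Oas1a carry overlapping matches, and Ifit3 and Ifit3b, which are copies of each other, share the printed stretch.

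PU.1, encoded by Spi1, is the transcription factor that defines macrophages and microglia, and Spi1 itself was among the genes that rose. Its core GAGGAAGT, on either strand of the same 250 bases, was held by 38 of 411 matched genes that rose past 2-fold (9.25%), by 1.49% of genes that fell and by 2.76% of tested genes. The lists chosen for microglia did not stand out, with 1 of 32 plaque-induced and 0 of 24 homeostatic genes holding it. The 3 genes with the smallest adjusted p among the holders that rose past 2-fold are shown: Samsn1 (chr16:75909267-75909326, minus strand), Renbp (chrX:73930928-73930987, minus strand) and Il4i1 (chr7:44836129-44836188, plus strand).
Samsn1: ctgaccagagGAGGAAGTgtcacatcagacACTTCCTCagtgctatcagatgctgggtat
Renbp: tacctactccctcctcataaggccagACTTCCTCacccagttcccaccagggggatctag
Il4i1: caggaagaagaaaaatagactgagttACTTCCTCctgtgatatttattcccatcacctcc
Samsn1 holds the core on both strands.

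Lysosomal genes rose for 29 of 55 tested members (52.7%, beside 6.37%) and fell for 0, with a median of 0.52 (28 of 53 on WT alone, beside 4.79%). Cd68, a lysosomal membrane protein of macrophages, was at 9.66, 11.4, 8.41 and 9.88 FPKM in WT and 112, 66.99, 57.1 and 103 FPKM in 5xFAD. Replicates 1 and 4 were above 2 and 3, and all were far above WT (log2 fold change of 3.12 ± 0.28 (SE), adjusted p = 3.95e-05). Ctsz, a cysteine carboxypeptidase, was at 44.05, 43.3, 37.96 and 40.7 FPKM in WT and 255, 165, 143 and 211 FPKM in 5xFAD, in the same order (log2 fold change of 2.24 ± 0.19 (SE), adjusted p = 1.82e-05). Grn, whose product progranulin supports lysosomal enzymes, was at 39.3, 34.6, 31.4 and 36.1 FPKM in WT and 113, 87.3, 75.7 and 119 FPKM in 5xFAD, without overlap (log2 fold change of 1.49 ± 0.15 (SE), adjusted p = 5.75e-05). The CLEAR core TCACGTGA, which the lysosomal regulator Tfeb binds, lay in the promoters of 5 of 47 matched genes of the list (10.6%), 1.77% of tested genes and 0.973% of genes that rose past 2-fold. The called holders in the list with the smallest adjusted p are shown, Ctsd (chr7:142387893-142387952, minus strand) and Ctsa (chr2:164833713-164833772, plus strand).
Ctsd: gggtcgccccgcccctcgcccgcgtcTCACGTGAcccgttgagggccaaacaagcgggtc
Ctsa: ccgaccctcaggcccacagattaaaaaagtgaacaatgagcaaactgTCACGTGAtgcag

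Some lipid genes rose as well. Apoe, the main lipid carrier of the brain, was at 3785, 3536, 3596 and 3378 FPKM in WT and 6816, 5638, 4923 and 5976 FPKM in 5xFAD, the highest level of any gene described here. All 5xFAD samples were above all WT samples (log2 fold change of 0.72 ± 0.13 (SE), adjusted p = 0.00321). Clu, a second abundant lipoprotein component, was at 846, 811, 742 and 751 FPKM in WT and 1365, 1126, 1108 and 1278 FPKM in 5xFAD, also apart (log2 fold change of 0.65 ± 0.10 (SE), adjusted p = 0.00120). Ch25h, which makes the oxysterol 25-hydroxycholesterol, was at 0.80, 0.44, 0.10 and 0.15 FPKM in WT and 6.03, 3.00, 2.06 and 1.46 FPKM in 5xFAD. Replicate 1 was the highest and the lowest 5xFAD sample exceeded the highest WT sample (log2 fold change of 3.03 ± 0.59 (SE), adjusted p = 0.00554). In the list of lipid carriers and cholesterol genes, 7 of 45 tested rose (15.6%, beside 6.37%) and 0 fell, median 0.31, and 6 of 44 rose on WT alone. The count that rose was 4 without WT replicate 3 or 4 or 5xFAD replicate 1, 11 without 5xFAD replicate 2 and 5 to 13 in the 9 other alternatives (5 with the 8 samples only). The count that fell was 1 without 5xFAD replicate 4 and 0 in the 9 other alternatives.

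Mouse homologs of genes tied to Alzheimer risk in people rose for 18 of 46 tested members (39.1%, beside 6.37%) and fell for 0, median 0.38 (15 of 42 on WT alone, beside 4.79%). Those that rose include Trem2, Apoe, Clu and Grn above. Inpp5d, a phosphatase that damps signalling from Trem2, was at 3.03, 3.34, 2.33 and 2.53 FPKM in WT and 9.93, 6.37, 6.78 and 9.72 FPKM in 5xFAD, replicates 1 and 4 highest (log2 fold change of 1.58 ± 0.18 (SE), adjusted p = 1.06e-04). Ctsh, a lysosomal aminopeptidase, was at 8.79, 8.57, 8.56 and 7.07 FPKM in WT and 49.6, 32.5, 29.5 and 37.7 FPKM in 5xFAD, all 5xFAD samples above WT (log2 fold change of 2.18 ± 0.25 (SE), adjusted p = 1.10e-04). The count that fell was 1 without 5xFAD replicate 3 and 0 to 2 in the 9 other alternatives (0 with the 8 samples only).

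Reactive astrocyte genes differed between the 5xFAD mice. Gfap, the intermediate filament of astrocytes, was at 263, 245, 234 and 219 FPKM in WT and 2604, 877, 318 and 1441 FPKM in 5xFAD. Replicate 1 was the highest, and replicate 3 was the closest to WT while still above it (log2 fold change of 2.47 ± 0.47 (SE), adjusted p = 0.00535). Aspg, an asparaginase of reactive astrocytes, was at 0.62, 0.65, 0.83 and 0.56 FPKM in WT and 10.1, 4.11, 3.33 and 6.18 FPKM in 5xFAD, again with replicate 1 highest and 3 lowest (log2 fold change of 2.97 ± 0.37 (SE), adjusted p = 2.12e-04). Of the list, 23 of 34 tested rose (67.6%, beside 6.37%) and 0 fell, median 1.82 (14 of 23 on WT alone, beside 4.79%). Of its 44 listed genes 15 are also in another list, among them the called genes Cxcl10, H2-D1 and Gbp2. The median was 1.22 without 5xFAD replicate 1. Of astrocyte genes outside that response, 6 of 32 tested rose (18.8%, beside 6.37%) and 0 fell, with a median of 0.16. That count was 1 without WT replicate 2 or 4, 2 without WT replicate 3 and 2 to 8 in the 9 other alternatives (2 with the 8 samples only). Sox9, their transcription factor, was at 20.02, 21.5, 20.4 and 17.4 FPKM in WT and 33.6, 25.4, 27.4 and 33.5 FPKM in 5xFAD, without overlap (log2 fold change of 0.61 ± 0.13 (SE), adjusted p = 0.0113). Aqp4, the water channel of astrocyte endfeet, was at 72.7, 73.3, 63.03 and 66.8 FPKM in WT and 193, 93.9, 74.7 and 159 FPKM in 5xFAD. Replicates 1 and 4 were high, and replicate 3 was just above the highest WT sample (log2 fold change of 0.88 ± 0.23 (SE), adjusted p = 0.0309). Aqp4 lost its call without WT replicate 1, 2, 3 or 4 or 5xFAD replicate 1 or 4 (adjusted p from 0.0543 to 0.0886) and in 4 other alternatives.

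Few oligodendrocyte genes passed the test. In the myelin list 2 of 35 tested rose (5.71%, beside 6.37%), Klk6 and Itpr2, and 0 fell, median 0.14. The higher number was 1 without WT replicate 1, 3 or 4 or 5xFAD replicate 1 and 1 to 4 in the 9 other alternatives (1 with the 8 samples only). Klk6, a secreted protease of oligodendrocytes, was at 1.66, 1.27, 1.83 and 0.90 FPKM in WT and 42.4, 2.87, 7.99 and 15.5 FPKM in 5xFAD, highest in replicates 1 and 4 (log2 fold change of 3.60 ± 0.74 (SE), adjusted p = 0.00926). Itpr2 (log2 fold change of 0.45 ± 0.12 (SE), adjusted p = 0.0358) lost its call without WT replicate 1, 3 or 4 or 5xFAD replicate 1 or 3 (adjusted p from 0.0528 to 0.115) and in 5 other alternatives. In the list of oligodendrocyte precursors 1 of 17 rose (5.88%), Cacng4 (log2 fold change of 0.76 ± 0.21 (SE), adjusted p = 0.0402), and 0 fell, median 0.16, and that call was lost without WT replicate 2, 3 or 4 or 5xFAD replicate 2 or 3 (adjusted p from 0.0691 to 0.110) and in 5 other alternatives. The number of precursor genes that rose was 0 without WT replicate 2, 3 or 4, 2 without 5xFAD replicate 4 and 0 to 2 in the 9 other alternatives (0 with the 8 samples only).

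**Figure D2:**
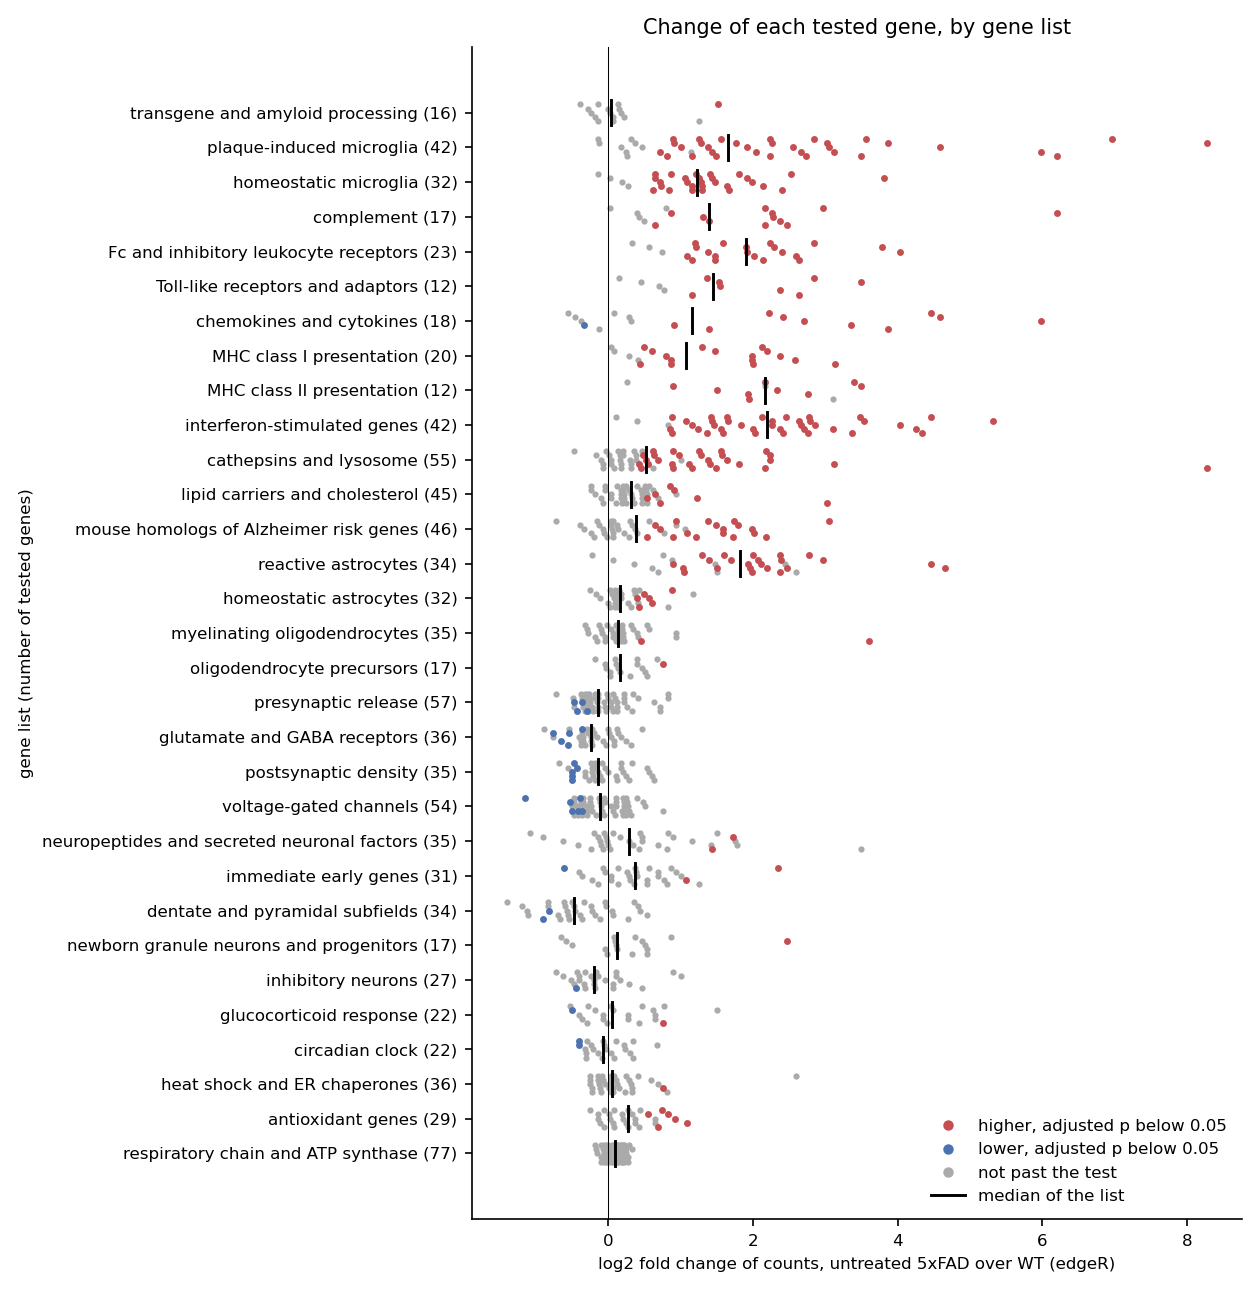
Log2 fold change of counts in untreated 5xFAD over WT (x axis) of every tested gene in 31 gene lists (y axis, number of tested genes in brackets); points are genes, red higher and blue lower at an adjusted p below 0.05, grey not past the test, and black bars list medians. Immune lists lie to the right, with 39 of 42 interferon-stimulated genes and 28 of 32 homeostatic microglia genes higher, while calls in the lists of synaptic and channel genes lie to the left.

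Most genes of the synaptic and channel lists did not pass the test, and those that did were lower. Gria2, the AMPA receptor subunit that keeps calcium out, was at 182, 185, 182 and 183 FPKM in WT and 111, 132, 104 and 135 FPKM in 5xFAD. The WT samples were almost identical and every 5xFAD sample was lower (log2 fold change of -0.55 ± 0.10 (SE), adjusted p = 0.00299). Gabrb2, a subunit of the GABA-A receptor, was at 21.7, 20.1, 19.99 and 18.4 FPKM in WT and 8.28, 10.3, 12.2 and 16.1 FPKM in 5xFAD, lowest in replicate 1 (log2 fold change of -0.77 ± 0.15 (SE), adjusted p = 0.00619). Grm5, a metabotropic glutamate receptor, was at 39.5, 38.7, 39.9 and 39.6 FPKM in WT and 25.1, 28.7, 18.4 and 30.5 FPKM in 5xFAD, lowest in replicate 3 (log2 fold change of -0.56 ± 0.11 (SE), adjusted p = 0.00641). Of the glutamate and GABA receptors 5 of 36 tested fell (13.9%, beside 2.01%) and 0 rose, median -0.24, the others being Grin1 and Grin2a. Grin1, the obligate subunit of NMDA receptors, was at 75.7, 73.8, 69.9 and 78.9 FPKM in WT and 54.8, 56.96, 52.8 and 64.2 FPKM in 5xFAD, without overlap (log2 fold change of -0.37 ± 0.09 (SE), adjusted p = 0.0165). Grin1 lost its call without WT replicate 4 (adjusted p = 0.0633). Grin2a lost its call without WT replicate 2, 3 or 4 (adjusted p from 0.0514 to 0.0795). The count was 3 without WT replicate 4, 9 without 5xFAD replicate 3 and 5 to 9 in the 9 other alternatives (6 with the 8 samples only).

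At the postsynaptic density, Dlgap1, a scaffold under glutamate receptors, was at 121, 121, 112 and 134 FPKM in WT and 68.4, 90.4, 72.5 and 92.5 FPKM in 5xFAD. Replicates 1 and 3 were below 2 and 4, and all were below WT (log2 fold change of -0.51 ± 0.09 (SE), adjusted p = 0.00270). Kalrn, an activator of Rac in dendritic spines, was at 58.4, 65.1, 57.5 and 68.7 FPKM in WT and 40.4, 47.7, 41.4 and 41.8 FPKM in 5xFAD, even within each group and apart (log2 fold change of -0.50 ± 0.10 (SE), adjusted p = 0.00723). With these, Cnksr2, Lrrc7 and Nlgn3 fell, 5 of 35 tested (14.3%, beside 2.01%) with 0 higher and a median of -0.15. Cnksr2 lost its call without WT replicate 1, 2, 3 or 4 or 5xFAD replicate 3 or 4 (adjusted p from 0.0654 to 0.138) and in 3 other alternatives, Lrrc7 without WT replicate 2, 3 or 4 or 5xFAD replicate 1 (adjusted p from 0.0548 to 0.0814) and in 2 other alternatives and Nlgn3 without WT replicate 1, 2, 3 or 4 or 5xFAD replicate 1 or 2 (adjusted p from 0.0517 to 0.102) and in 1 other alternative. The count became 2 without WT replicate 2, 3 or 4, 3 without 5xFAD replicate 1, 8 without 5xFAD replicate 3 and 2 to 7 in the 9 other alternatives (2 with the 8 samples only).

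Presynaptic genes fell for 4 of 57 tested members (7.02%, beside 2.01%) and rose for 0, median -0.15. Ppfia2, a liprin scaffold of the release site, was at 38.3, 38.2, 37.6 and 39.9 FPKM in WT and 26.3, 31.9, 25.2 and 26.6 FPKM in 5xFAD, lower in every 5xFAD sample (log2 fold change of -0.47 ± 0.10 (SE), adjusted p = 0.0106). Unc13a, which primes synaptic vesicles, was at 15.1, 14.1, 13.9 and 15.9 FPKM in WT and 12.6, 10.2, 9.09 and 11.7 FPKM in 5xFAD (log2 fold change of -0.36 ± 0.09 (SE), adjusted p = 0.0256). Unc13a lost its call without WT replicate 1 or 4 or 5xFAD replicate 2 (adjusted p from 0.0520 to 0.0925) and in 1 other alternative. Its groups lay apart too. The others were Synj1, lost without WT replicate 1, 2, 3 or 4 (adjusted p from 0.0534 to 0.105) and in 4 other alternatives, and Dnajc5, lost without WT replicate 1, 2, 3 or 4 or 5xFAD replicate 1, 2 or 3 (adjusted p from 0.0625 to 0.137) and in 3 other alternatives. The count became 1 without WT replicate 1 or 4, 2 without WT replicate 2 or 3, 11 without 5xFAD replicate 4 and 1 to 8 in the 9 other alternatives (1 with the 8 samples only). The count that rose was 2 without 5xFAD replicate 4 and 0 in the 9 other alternatives.

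Voltage-gated channels fell for 6 of 54 tested members (11.1%, beside 2.01%) and rose for 0, median -0.11. Scn3b, an auxiliary subunit of sodium channels, had the largest decrease. It was at 74.99, 75.1, 66.2 and 73.7 FPKM in WT and 27.2, 51.1, 12.3 and 39.8 FPKM in 5xFAD. Replicate 3 was the lowest of the 5xFAD samples and replicate 2 the closest to WT (log2 fold change of -1.15 ± 0.30 (SE), adjusted p = 0.0327). Scn3b lost its call without WT replicate 1, 2, 3 or 4 or 5xFAD replicate 1 (adjusted p from 0.0571 to 0.0841) and in 2 other alternatives. Scn2a, a sodium channel of axons, was at 43.8, 44.4, 45.4 and 44.6 FPKM in WT and 28.7, 34.6, 34.8 and 34.8 FPKM in 5xFAD, with replicates 2 to 4 level and replicate 1 below them (log2 fold change of -0.36 ± 0.09 (SE), adjusted p = 0.0189). Scn2a lost its call without WT replicate 3 or 4 or 5xFAD replicate 1 (adjusted p from 0.0531 to 0.0547) and in 1 other alternative. Scn8a, the channel of the axon initial segment, was at 24.6, 26.8, 24.9 and 29.4 FPKM in WT and 18.00, 19.2, 20.3 and 20.4 FPKM in 5xFAD, all 5xFAD samples below WT (log2 fold change of -0.39 ± 0.10 (SE), adjusted p = 0.0236). Scn8a lost its call without WT replicate 3 or 4 or 5xFAD replicate 1 (adjusted p from 0.0548 to 0.0885) and in 1 other alternative. Scn3a lost its call without WT replicate 1, 2 or 4 or 5xFAD replicate 1 or 3 (adjusted p from 0.0562 to 0.0813) and in 1 other alternative, Kcnn2 without WT replicate 1, 2, 3 or 4 or 5xFAD replicate 2 or 3 (adjusted p from 0.0535 to 0.105) and in 3 other alternatives and Kcnd2 without WT replicate 1, 2, 3 or 4 or 5xFAD replicate 1, 3 or 4 (adjusted p from 0.0774 to 0.136) and in 4 other alternatives. The count was 0 without WT replicate 4, 1 without WT replicate 3 or 5xFAD replicate 1, 2 without WT replicate 1 or 2 and 3 to 10 in the 9 other alternatives (3 with the 8 samples only).

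The other 5 genes lower past 2-fold were of low or moderate level. Alkal2, a ligand of the receptor tyrosine kinase ALK, was at 3.00, 5.88, 3.94 and 3.67 FPKM in WT and 1.25, 1.82, 0.61 and 0.82 FPKM in 5xFAD. Every 5xFAD sample was below every WT sample, and the log2 fold change of -1.82 ± 0.31 (SE), adjusted p = 0.00219 was the largest decrease of a called gene. Rasd1, a Ras-like protein that glucocorticoids induce, was at 56.9, 44.1, 59.7 and 61.2 FPKM in WT and 24.8, 40.6, 12.2 and 30.9 FPKM in 5xFAD, lowest in replicate 3 (log2 fold change of -1.02 ± 0.26 (SE), adjusted p = 0.0281). Rasd1 lost its call without WT replicate 1, 3 or 4 or 5xFAD replicate 1 (adjusted p from 0.0622 to 0.0774) and in 1 other alternative. Cdhr1, a cadherin, was at 2.87, 1.86, 1.63 and 2.66 FPKM in WT and 0.40, 1.12, 0.42 and 1.38 FPKM in 5xFAD (log2 fold change of -1.43 ± 0.37 (SE), adjusted p = 0.0286) and lost its call without WT replicate 1 or 4 or 5xFAD replicate 1 or 3 (adjusted p from 0.0533 to 0.0837) and in 1 other alternative. In both genes the groups were apart. Ndst4, an enzyme that modifies heparan sulfate, was at 2.97, 1.64, 2.25 and 2.23 FPKM in WT and 0.93, 1.13, 0.24 and 1.11 FPKM in 5xFAD (log2 fold change of -1.42 ± 0.34 (SE), adjusted p = 0.0191) and lost its call without WT replicate 1 or 3 or 5xFAD replicate 1 (adjusted p from 0.0542 to 0.0564) and in 1 other alternative. Ror1, a Wnt receptor, was at 1.00, 1.21, 1.41 and 1.21 FPKM in WT and 0.44, 0.50, 0.16 and 0.83 FPKM in 5xFAD, highest of the 5xFAD samples in replicate 4 (log2 fold change of -1.31 ± 0.35 (SE), adjusted p = 0.0352). Ror1 lost its call without WT replicate 1, 2, 3 or 4 or 5xFAD replicate 1 or 2 (adjusted p from 0.0561 to 0.0971) and in 1 other alternative.

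The smallest adjusted p among lower genes belonged to Zfp189, a zinc finger transcription factor, at 10.2, 10.2, 10.7 and 10.1 FPKM in WT and 5.70, 6.82, 3.97 and 5.46 FPKM in 5xFAD. The WT values lay within a narrow band and replicate 3 was the lowest of 5xFAD (log2 fold change of -0.89 ± 0.15 (SE), adjusted p = 0.00169). Fry, a large microtubule-binding protein, was at 21.8, 17.4, 18.8 and 17.3 FPKM in WT and 11.6, 15.5, 10.7 and 15.2 FPKM in 5xFAD, apart but closer (log2 fold change of -0.58 ± 0.10 (SE), adjusted p = 0.00212). Adgrb3, an adhesion receptor at synapses, was at 22.8, 22.9, 23.8 and 23.8 FPKM in WT and 14.3, 14.4, 12.1 and 17.1 FPKM in 5xFAD, with replicate 4 nearest to WT (log2 fold change of -0.61 ± 0.12 (SE), adjusted p = 0.00442). Cyria, which binds Rac, was at 57.7, 57.5, 56.03 and 57.2 FPKM in WT and 39.3, 37.7, 31.8 and 44.9 FPKM in 5xFAD. Its lowest WT sample was well above its highest 5xFAD sample (log2 fold change of -0.56 ± 0.10 (SE), adjusted p = 0.00270). The 10 lower genes with the smallest adjusted p also include Mal2, Arhgef3 and Tbc1d1, with log2 fold changes of -0.62, -0.74 and -0.59. None of these 10 lost its call in any of the 17 alternatives that tested it.

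Markers of hippocampal subfields had a median of -0.47, and 2 of 34 tested fell (5.88%, beside 2.01%) and 0 rose. That median was -0.29 without 5xFAD replicate 3. Lmo3, a LIM protein of pyramidal neurons, was at 83.7, 76.8, 82.5 and 87.4 FPKM in WT and 43.9, 55.8, 24.6 and 62.7 FPKM in 5xFAD, lowest in replicate 3 (log2 fold change of -0.82 ± 0.19 (SE), adjusted p = 0.0181). Lmo3 lost its call without WT replicate 3 or 4 or 5xFAD replicate 1 (adjusted p from 0.0528 to 0.0544) and in 1 other alternative. Nr3c2, the mineralocorticoid receptor, was at 23.3, 26.5, 25.5 and 26.6 FPKM in WT and 12.9, 16.7, 8.29 and 16.9 FPKM in 5xFAD, in the same order (log2 fold change of -0.91 ± 0.25 (SE), adjusted p = 0.0356). Nr3c2 lost its call without WT replicate 1, 2, 3 or 4 or 5xFAD replicate 1 (adjusted p from 0.0644 to 0.0826) and in 1 other alternative. In both genes every 5xFAD sample was below every WT sample. The count was 0 without WT replicate 3 or 4 or 5xFAD replicate 1, 1 without WT replicate 1 or 2, 6 without 5xFAD replicate 2 and 0 to 3 in the 9 other alternatives (0 with the 8 samples only). Of inhibitory neuron genes 1 of 27 tested fell (3.70%, beside 2.01%), Gad1, and 0 rose, median -0.20. Gad1, the main enzyme of GABA synthesis, was at 101, 93.96, 77.05 and 83.1 FPKM in WT and 54.9, 58.95, 60.5 and 79.7 FPKM in 5xFAD. Replicate 4 lay within the WT range and the other 3 below it (log2 fold change of -0.45 ± 0.11 (SE), adjusted p = 0.0196). Gad1 lost its call without WT replicate 1 or 2 or 5xFAD replicate 1 (adjusted p from 0.0556 to 0.0670). The number of inhibitory neuron genes that fell was 0 without WT replicate 1 or 2 or 5xFAD replicate 1, 3 without 5xFAD replicate 4 and 1 to 4 in the 9 other alternatives (1 with the 8 samples only).

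**Figure D3:**
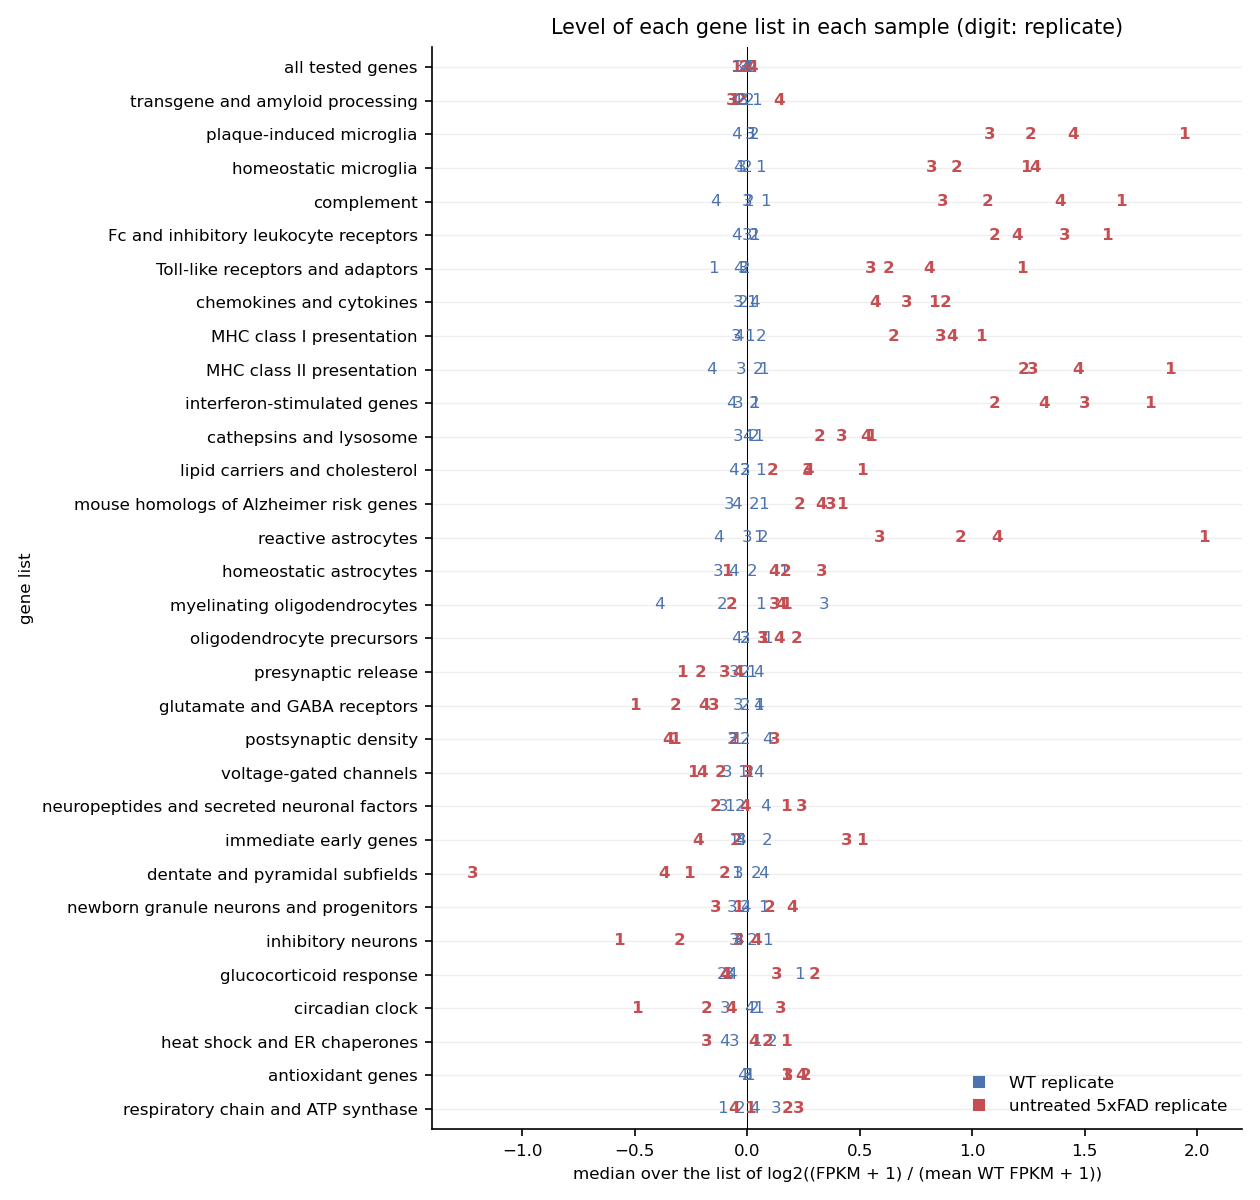
Median of log2((FPKM + 1) / (mean WT FPKM + 1)) in each sample (x axis) over all tested members of each gene list (y axis); digits are replicate numbers, blue for WT and red for untreated 5xFAD. In the immune and reactive astrocyte lists all 5xFAD samples lie right of all WT samples, from 1.08 to 1.94 for plaque-induced genes, and replicate 3 lies apart at -1.22 for the subfield list.

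The 5xFAD mice differed among themselves by list. The per-sample median of the plaque-induced list, on the log2((FPKM + 1) / (mean WT FPKM + 1)) scale, was 1.94, 1.26, 1.08 and 1.45 in 5xFAD and 0.02, 0.03, 0.01 and -0.05 in WT. That of interferon-stimulated genes was 1.79, 1.10, 1.5 and 1.32 in 5xFAD and 0.03, 0.03, -0.04 and -0.07 in WT. That of reactive astrocytes was 2.03, 0.95, 0.59 and 1.11 in 5xFAD and 0.05, 0.07, 0.00 and -0.13 in WT. Replicate 1 was the highest in all 3 lists, while replicate 3 was the lowest for the microglial and astrocyte lists and came after replicate 1 alone for the interferon list. Over the members that pass on WT alone, a choice made after the values were seen, the 5xFAD medians were 1.56, 1.16, 0.97 and 1.24 for the plaque-induced, 1.83, 1.29, 1.5 and 1.44 for the interferon and 2.02, 0.70, 0.60 and 1.11 for the reactive astrocyte list, in the same order of replicates. For chemokines and cytokines they went from 0.83, 0.88, 0.71 and 0.57 over all tested members to -0.04, 0.13, 0.16 and 0.13 over those that pass on WT alone, and for Fc and inhibitory receptors from 1.60, 1.10, 1.41 and 1.20 to 2.11, 1.48, 1.53 and 1.60. For glutamate and GABA receptors the medians were -0.50, -0.32, -0.15 and -0.19 in 5xFAD and 0.05, -0.01, -0.04 and 0.05 in WT, replicate 1 lowest. They were -0.32, -0.06, 0.12 and -0.35 in 5xFAD and -0.05, -0.01, -0.07 and 0.09 in WT for the postsynaptic density, where replicate 3 was above every WT sample, -0.29, -0.21, -0.10 and -0.04 and 0.02, -0.01, -0.06 and 0.05 for presynaptic genes, and -0.24, -0.12, 0.00 and -0.20 and -0.02, 0.01, -0.09 and 0.05 for channels, replicate 3 highest of 5xFAD. For subfield markers they were -0.26, -0.10, -1.22 and -0.37 in 5xFAD and -0.05, 0.04, -0.04 and 0.07 in WT. All tested genes together had medians of -0.05, -0.01, -0.01 and 0.02 in 5xFAD and 0.01, 0.02, -0.04 and -0.01 in WT.

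Markers of other cell types were summed in each sample to see what else the dissections held, and 16 sums were compared by a two-sided exact permutation test, whose smallest possible p with 4 against 4 is 0.0286. Microglia markers (6 genes) summed to 262, 227, 239 and 229 FPKM in WT and 717, 523, 507 and 639.9 in 5xFAD (exact p = 0.0286), and astrocyte markers (5 genes, most abundant Gfap) to 706, 645, 607 and 581 and 3093, 1317, 739.6 and 1962 (exact p = 0.0286), of which Gfap made up most in 5xFAD replicates 1, 2 and 4. Excitatory neuron markers (6 genes, most abundant Camk2a) summed to 2599.7, 2745, 2886 and 3061 in WT and 2025, 2765, 2503 and 2125 in 5xFAD, where replicate 2 lay within the WT range (exact p = 0.0857). Oligodendrocyte markers (5 genes, most abundant Mbp) overlapped at 3528, 2884, 4330.4 and 2363 and 4049, 3032, 3629 and 3585 (exact p = 0.486).

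Tissue next to the hippocampus varied as well. Leptomeningeal fibroblast markers (22 genes, most abundant Mgp) summed to 136, 154, 91.1 and 93.5 FPKM in WT and 228, 263, 477 and 269.7 in 5xFAD, with every 5xFAD sample higher (exact p = 0.0286), and 9 of 19 tested rose (47.4%, beside 6.37%; 5 of 13 on WT alone, beside 4.79%). That count was 5 without WT replicate 3 or 4 and 4 to 14 in the 9 other alternatives (6 with the 8 samples only), and Mgp, Col1a1, Col6a1 and Col6a2 lost their calls in some of these. Border macrophage markers (10 genes, most abundant Pf4) summed to 7.20, 5.76, 6.41 and 4.80 and 11.6, 17.5, 21.6 and 9.41, also apart (exact p = 0.0286). Markers of T, NK and B cells (15 genes) summed to 11.7, 17.4, 16.8 and 19.6 and 52.0, 41.4, 56.8 and 45.3 (exact p = 0.0286). Of these Ighm was the most abundant, Ncr1 was at 0 in all 8 samples and 12 of 15 were below 1 FPKM in every sample. Neutrophil markers (8 genes, most abundant S100a8) summed to 1.44, 1.76, 0.740 and 0.940 and 3.68, 8.25, 9.37 and 6.14 (exact p = 0.0286), with 5 of 8 below 1 FPKM in every sample. Choroid plexus markers (15 genes, most abundant Ttr) ranged widely in both groups, 121, 2879.7, 434 and 42.8 in WT and 3274, 2987, 720.4 and 220.3 in 5xFAD (exact p = 0.229). After adjustment over the 16 sums the p of those at 0.0286 was 0.0763. Without the most abundant marker of each list, a choice made after the values were seen, astrocyte markers summed to 444, 399.7, 373 and 362 in WT and 489, 439.9, 421 and 522 in 5xFAD and overlapped (exact p = 0.0857), as did T, NK and B cells (exact p = 0.0571), while pericytes and smooth muscle came apart (exact p = 0.0286).

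Of the other sums, blood endothelium (10 genes, most abundant Ly6c1) gave 140.3, 126, 125 and 134 FPKM in WT and 148, 154, 196 and 126 in 5xFAD (exact p = 0.143). Pericytes and smooth muscle (10 genes, most abundant Vtn) gave 77.9, 73.3, 66.2 and 62.7 and 69.0, 94.7, 105 and 89.6 (exact p = 0.0857), and ependyma (10 genes, most abundant Rarres2) 47.1, 83.2, 88.5 and 22 and 81.1, 82.1, 124 and 119.8 (exact p = 0.171). In each the groups overlapped. Hemoglobins and other erythroid markers (6 genes, most abundant Hbb-bs) were at 63.0, 77.2, 17.8 and 9.90 in WT and 27.6, 187, 318 and 57.6 in 5xFAD, highest in replicates 2 and 3 (exact p = 0.171). Markers of neighbouring regions were at 103, 89.8, 85.3 and 101 and 136, 96.1, 277 and 124 for neocortex (9 genes, most abundant Lamp5, exact p = 0.0857), where replicate 3 was the highest. Without Lamp5, replicate 1 of 5xFAD (121) was above replicate 3 (108). Markers of striatum (10 genes, most abundant Ppp1r1b) were at 109.7, 127, 109.6 and 108 and 135, 114, 163 and 109 (exact p = 0.229), and those of thalamus and habenula (11 genes, most abundant Tac1) at 48.7, 53.9, 55.0 and 47.8 and 36.0, 48.8, 87.4 and 41.2 (exact p = 1.00). Replicate 3 of 5xFAD was the highest of the 8 samples in both. The part of these tissues in the gene results was not tested.

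**Figure D4:**
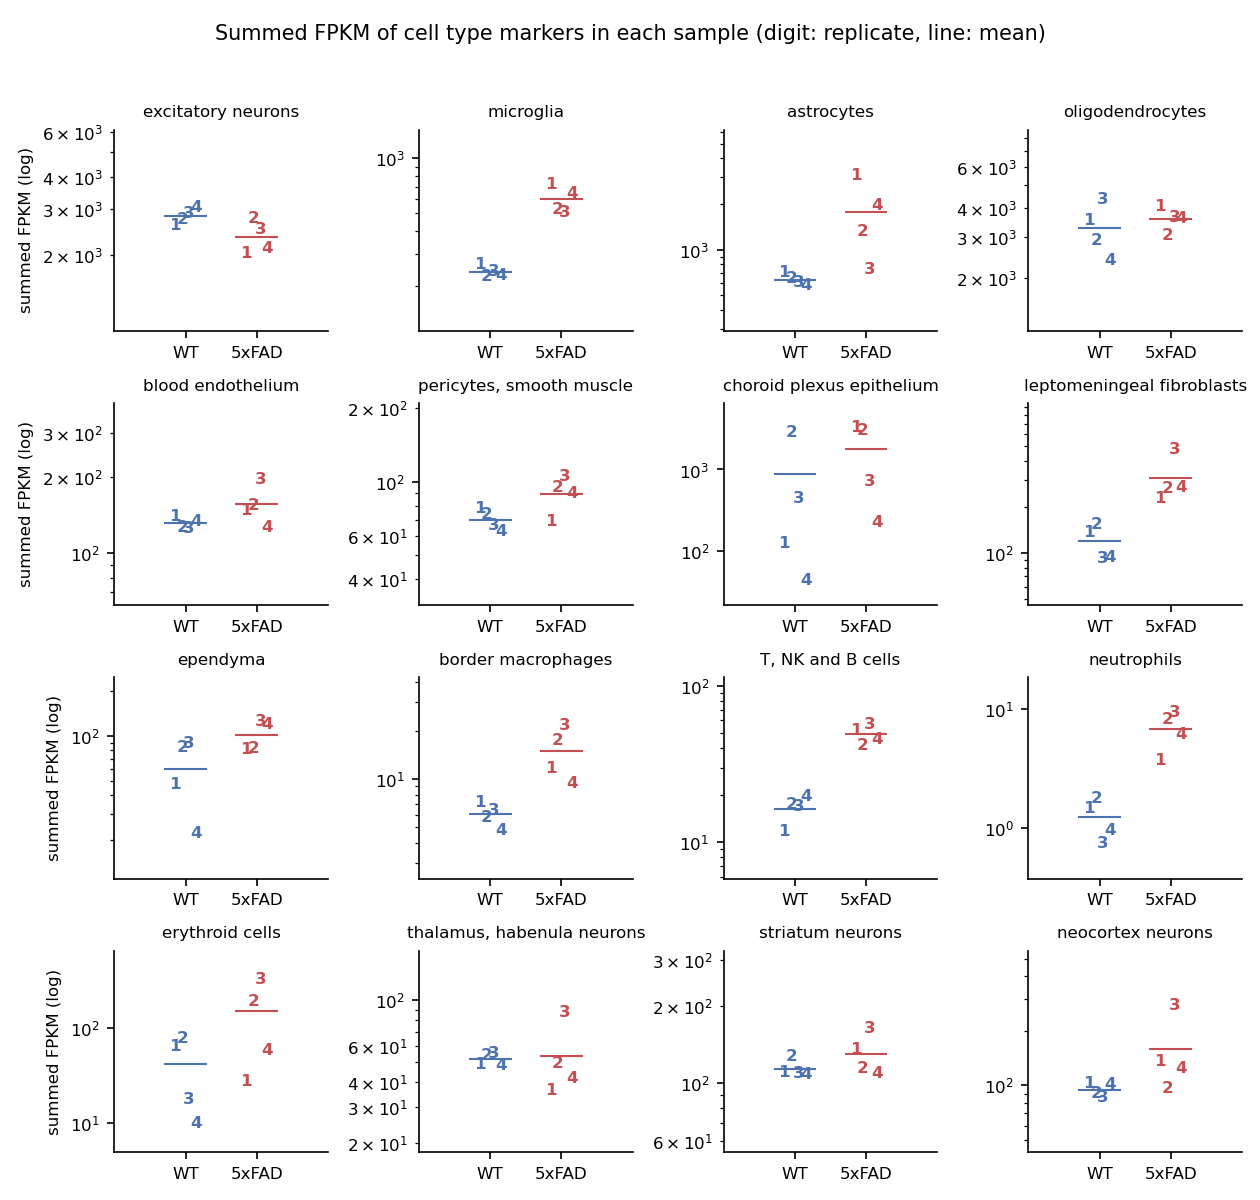
Summed FPKM (y axis, logarithmic, own range in each panel) of the markers of 16 cell types and neighbouring regions in WT (blue) and untreated 5xFAD (red) samples; digits are replicate numbers and lines group means. Microglia, astrocytes, leptomeningeal fibroblasts, border macrophages, lymphocytes and neutrophils have 5xFAD samples that all lie above WT, while choroid plexus markers spread from 42.8 to 3274 FPKM across both groups.

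Prl, the pituitary hormone prolactin, was among the largest increases and was the least even of them, at 0.09, 0.06, 0.00 and 0.40 FPKM in WT and 8.82, 29.9, 7.54 and 0.49 FPKM in 5xFAD. Replicate 4 was barely above the highest WT sample (log2 fold change of 6.28 ± 1.69 (SE), adjusted p = 0.0373). Prl lost its call without WT replicate 1, 2, 3 or 4 or 5xFAD replicate 1, 2 or 3 (adjusted p from 0.0657 to 0.107) and in 3 other alternatives. Other pituitary hormone genes, chosen after their values were seen, went with it across samples. Gh, growth hormone, was at 1.20, 0.13, 0.46 and 2.78 FPKM in WT and 66.6, 547, 83.1 and 0.57 FPKM in 5xFAD, high in replicates 1 to 3 and within the WT range in replicate 4, and did not pass (adjusted p = 0.0725). Pomc, the precursor of corticotropin, was at 1.69, 2.13, 1.98 and 2.51 FPKM in WT and 7.08, 225, 13.5 and 1.34 FPKM in 5xFAD, highest in replicate 2, with an adjusted p of 0.134. Cga, the shared alpha subunit of pituitary glycoprotein hormones, was at 0.00, 0.00, 0.00 and 0.17 FPKM in WT and 2.26, 12.2, 1.32 and 0.08 FPKM in 5xFAD (adjusted p = 0.0904). The part of pituitary tissue in the value of Prl was not tested.

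The same contrast in the meninges served to ask which of these changes differ from those in another tissue of the same study. There, with 4 WT and 3 untreated 5xFAD samples, edgeR called 0 genes, while 1444 had an unadjusted p below 0.05; no other tool was run there. The test of the difference between tissues passed for 273 of 14852 genes (1.84%), 262 with a larger log2 fold change in the hippocampus and 11 with a smaller. This count was 175 without hippocampus 5xFAD replicate 1, 128 without meninges 5xFAD replicate 1, and 174 and 161 without hippocampus WT replicates 1 and 4. Thy1 was at 21.3, 10.6, 15.6 and 15.01 FPKM in WT meninges and 18.9, 18.7 and 23.86 FPKM in 5xFAD meninges, and its log2 fold change was 1.17 larger in the hippocampus (adjusted p = 0.0221). Cst7 was at 2.08, 3.37, 0.87 and 3.46 FPKM in WT meninges and 2.76, 4.22 and 4.38 FPKM in 5xFAD meninges. Its meningeal groups overlapped, and the log2 fold changes differed by 7.62 (adjusted p = 3.32e-06). Clec7a was at 3.03, 5.02, 4.63 and 5.48 FPKM in WT meninges and 2.42, 3.34 and 8.12 FPKM in 5xFAD meninges, with a difference of 6.54 (adjusted p = 3.32e-06). WT meninges held more Clec7a than WT hippocampus. Timp1 was at 368, 187, 127 and 156 FPKM in WT meninges and 178, 652 and 217 FPKM in 5xFAD meninges, and for it the difference did not pass (adjusted p = 0.0935), nor did it for Prl (adjusted p = 0.448).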

How the data were processed

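RNA of individual hippocampi was made into Smart-seq2 libraries and sequenced on a NovaSeq instrument. The authors deposited FPKM and expected counts per gene (estimates, not all of them whole). Per the labels, reads went through Trimmomatic, HISAT2, StringTie and DESeq2 on mm10, whereas the study's methods name fastp and RSEM, so how the counts were made is uncertain. Total counts ran from 13952825 to 23856476 per sample, and the common biological coefficient of variation was 0.196. That value is shared by groups of unequal spread. Pairs of WT samples correlated at 0.981 to 0.989 in log2 normalized counts, and pairs of 5xFAD samples at 0.934 to 0.971.

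After rounding, these expected counts went into edgeR 4.0.16 (TMM scaling, robust quasi-likelihood test, Benjamini-Hochberg adjustment over 12772 genes) in a fit of all 12 hippocampus samples, including 4 light-treated ones that only inform the spread. A gene was called at an adjusted p below 0.05. The meninges were added in a fit of 22 samples for the difference between tissues. Levels are deposited FPKM, and exact permutation tests used log2(FPKM + 1). Positions come from GENCODE vM21 on GRCm38 and promoter letters from RefSeq on GRCm38.p6. Alternatives were DESeq2 1.42.0, limma 3.58.1 on FPKM, RLE scaling, other filters, fewer samples, a replicate block and leaving out each library. Computation used R 4.3.3, Python 3.11.15, pandas 2.3.3, numpy 2.4.6 and scipy 1.17.1.

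Genes were named by rule: Thy1, App and Psen2; up to 12 in each direction with the largest change past 2-fold and no overlap; up to 10 in each direction with the smallest adjusted p; and up to 4 per list with the smallest adjusted p, beside defining markers. Gm and Rik symbols were left out. Cx3cl1, Gh, Pomc, Cga and Oxt, and list members named without values per sample where the rule does not name them, were chosen after their values were seen. Some items are not reported here. The members and lists were chosen with earlier results of these data known.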

Additional observations from a re-analysis of the deposited data

Results flagged for a closer look

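In each group of 4 samples, the highest or lowest sample was noted when its gap to the nearest other took up nearly all of the group's range; chance gives about 1 in 20 such groups, and 22 of 244 were found. Replicate 1 of 5xFAD lay far above the other 5xFAD samples for Cst7 (gap over range 0.832), Hcar2 (0.86), Timp1 (0.89), Tlr2 (0.91) and Trem2 (0.84), and far below them for App (0.831) and Scn2a (0.97). Replicate 3 of 5xFAD was far below for Neurod6 (0.97) and far above for Oxt (0.94) and the leptomeningeal fibroblast sum (0.83). Replicate 2 of 5xFAD was far above for Gh (0.85) and Pomc (0.95). Among WT samples, replicate 2 was far above for Ttr (0.87), the choroid plexus sum (0.86) and the striatum sum (0.92). WT replicate 3 was far above for Zfp189 (0.92), Neurod6 (0.93) and the mitochondrial share (0.86), and far below for Scn3b (0.84). WT replicate 4 was far below for Ptpn6 (0.92) and Ctsh (0.87), and far above for Cga (1.00), the other WT samples being at 0.

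The change in 5xFAD differed between hippocampus and meninges, by a test of the difference itself, for 11 of 22 genes looked at. Most of the 22 had been named for a large change in the hippocampus, which favours such a difference, so neither this share nor its direction stands for genes in general. The difference in log2 fold change was 1.17 for Thy1, 7.62 for Cst7, 6.54 for Clec7a, 6.80 for Itgax, 6.62 for Ccl3 and 7.48 for Hcar2. It was 5.23 for Ifi204, 4.81 for Ly9, 5.79 for Pdcd1, 5.27 for Ccl4 and 5.25 for Cxcl10.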

How the results depend on the processing

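Of 149 genes named by the rule, 109 were called, 79 of them kept the call in each of the 17 alternatives that tested them, and 30 lost it in at least 1. Genes higher past 2-fold (525) numbered 303 by limma on log2(FPKM + 1) and 200 at a mean FPKM of at least 5, where fewer genes are tested, and 419 to 563 with a library left out. Genes lower past 2-fold (6) numbered 13 by DESeq2 on 12 samples, 13 by limma on log2(FPKM + 0.1), 1 at a mean FPKM of at least 5, 1 with only the 8 compared samples, and 1 to 46 with a library left out. All higher genes (814) numbered 444 at a mean FPKM of at least 5, and 559 to 1030 with a library left out. All lower genes (257) numbered 630 by DESeq2 on 12 samples, 402 by DESeq2 on 8, 167 at a mean FPKM of at least 5, 100 with only the 8 compared samples, and 82 to 643 with a library left out. Genes that differ between tissues (273) numbered 152 at a mean FPKM of at least 5 and 128 to 374 with a library left out. The cause of these shifts was not tested. Of the genes only Ddx3y reversed, from a log2 fold change of -0.01 to 0.03 at a mean FPKM of at least 5, 0.00 and 0.09 without 5xFAD replicates 2 and 4, and 0.07 without WT replicate 3, over a leave-one-out range from -0.10 to 0.09, never past the test. The thalamus and habenula sum also changed sign as a difference of group means of log2(summed FPKM + 1). It went from -0.03 to 0.05 without Tac1, an alternative chosen after the values were seen. The ratio of the mean sums with Tac1 was 1.04, so that measure was already above 1.

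Replicate numbers were also used as a block. With the block, 462 genes were higher and 8 lower past 2-fold, 655 higher and 176 lower in all, and 199 differed between tissues. As a hint on pairing, 0 of 4 WT samples correlated best with their own number, with same-number correlations from -0.19 to 0.09.

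With 4 mice in each group, 1 age and 1 sex, small changes in genes of low level are beyond these data, and calls of lower genes depend on single libraries.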

Other observations

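Some genes of the oxidative stress response rose. Of the antioxidant list 6 of 29 tested rose (20.7%, beside 6.37% of all genes) and 0 fell, median 0.27. Nfe2l2, the transcription factor Nrf2 that controls many of them, was at 8.52, 8.87, 6.23 and 5.90 FPKM in WT and 19.4, 13.8, 14.9 and 13.9 FPKM in 5xFAD. Every 5xFAD sample was above every WT sample, replicate 1 the highest (log2 fold change of 1.09 ± 0.18 (SE), adjusted p = 0.00167). Prdx6, a peroxiredoxin that is abundant in astrocytes, was at 351, 338, 316 and 303 FPKM in WT and 644, 469.6, 508 and 664 FPKM in 5xFAD, with replicates 1 and 4 highest (log2 fold change of 0.82 ± 0.14 (SE), adjusted p = 0.00188). Gpx1, a glutathione peroxidase, was at 95.8, 89.8, 95.3 and 83.2 FPKM in WT and 172, 124, 163 and 140.1 FPKM in 5xFAD, highest in replicates 1 and 3 and also apart (log2 fold change of 0.74 ± 0.14 (SE), adjusted p = 0.00373). Mgst1, Hmox1 and Sod3 rose too, but Hmox1 lost its call without WT replicate 2, 3 or 4 or 5xFAD replicate 1 (adjusted p from 0.0561 to 0.0580), and Sod3 without WT replicate 1, 2, 3 or 4 or 5xFAD replicate 3 (adjusted p from 0.0506 to 0.0934) and in 4 other alternatives. Genes for the respiratory complexes and the ATP synthase gave 0 calls in 77 tested genes by edgeR, DESeq2 and limma (median 0.09). Of all tested genes, 6.37% rose and 2.01% fell by edgeR. An unadjusted p below 0.05 in edgeR was found for 0 of the 77, beside 3043 of all 12772 tested genes.

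Of 31 tested genes that neuronal activity induces, Atf3 and Fos rose (6.45%, beside 6.37%) and Nr4a2 fell (3.23%, beside 2.01%), median 0.37. Of the 29 that pass on WT alone 1 rose and 1 fell. The log2 fold change was positive for 24 and negative for 7 of the 31, and the per-sample medians were 0.51, -0.05, 0.44 and -0.22 in 5xFAD and -0.06, 0.09, -0.03 and -0.03 in WT. Atf3, which cell stress also induces, was at 1.18, 0.80, 0.87 and 0.90 FPKM in WT and 9.28, 1.96, 3.23 and 4.36 FPKM in 5xFAD. It was above WT in every 5xFAD sample (log2 fold change of 2.34 ± 0.40 (SE), adjusted p = 0.00214). Fos was at 10.7, 12.8, 11.96 and 10.5 FPKM in WT and 30.9, 20.98, 33.2 and 9.91 FPKM in 5xFAD, with replicate 4 below the WT samples and the other 3 above (log2 fold change of 1.07 ± 0.30 (SE), adjusted p = 0.0429). Fos lost its call without WT replicate 1, 2, 3 or 4 or 5xFAD replicate 1, 2 or 3 (adjusted p from 0.0518 to 0.116) and in 5 other alternatives. Nr4a2 was at 21.3, 21.1, 16.1 and 18.99 FPKM in WT and 16.5, 12.6, 8.79 and 12.6 FPKM in 5xFAD, with overlap (log2 fold change of -0.61 ± 0.17 (SE), adjusted p = 0.0413). Nr4a2 lost its call without WT replicate 1, 2, 3 or 4 or 5xFAD replicate 2, 3 or 4 (adjusted p from 0.0557 to 0.110) and in 3 other alternatives. The number of these genes that rose was 1 without WT replicate 1, 2, 3 or 4 or 5xFAD replicate 3, 4 without 5xFAD replicate 2, 5 without 5xFAD replicate 4 and 1 to 6 in the 9 other alternatives (1 with the 8 samples only). The number that fell was 0 without WT replicate 1, 2, 3 or 4 or 5xFAD replicate 2 or 4 and 0 to 1 in the 9 other alternatives (0 with the 8 samples only). The cyclic AMP response element TGACGTCA lay in the promoters of 3 of 26 matched genes of this list, in 2.99% of tested genes and in 1 of 411 genes that rose past 2-fold. Of the neuropeptides and secreted factors 2 of 35 tested rose (5.71%, beside 6.37%), Penk and Igf1, and 0 fell, median 0.29. Penk, the precursor of enkephalins, was at 43.4, 37.4, 37.8 and 46.2 FPKM in WT and 287, 50.2, 70.5 and 126 FPKM in 5xFAD. Replicates 1 and 4 were far above WT and replicate 2 just above it (log2 fold change of 1.73 ± 0.43 (SE), adjusted p = 0.0259). Penk lost its call without WT replicate 1, 2, 3 or 4 (adjusted p from 0.0509 to 0.0812) and in 4 other alternatives. The number of neuropeptide genes that rose was 1 without WT replicate 1, 3 or 4, 4 without 5xFAD replicate 2 or 4 and 1 to 4 in the 9 other alternatives (1 with the 8 samples only). The number that fell was 1 without 5xFAD replicate 2 and 0 to 1 in the 9 other alternatives (0 with the 8 samples only).

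Smaller lists had few calls. Of newborn neuron and progenitor genes 1 of 17 tested rose (5.88%, beside 6.37%), the mitotic kinase gene Cdk1, at 0.16, 0.11, 0.75 and 0.33 FPKM in WT and 1.80, 1.41, 2.03 and 1.60 FPKM in 5xFAD (log2 fold change of 2.47 ± 0.52 (SE), adjusted p = 0.00840), and 0 fell, median 0.12. Cdk1 passed the filter only through 5xFAD, and of the 15 members that pass on WT alone 0 rose. The higher count was 2 without 5xFAD replicate 2 and 0 to 3 in the 9 other alternatives (1 with the 8 samples only). The lower count was 3 without 5xFAD replicate 2 and 0 to 2 in the 9 other alternatives (0 with the 8 samples only). Of glucocorticoid-response genes Tgm2 rose (log2 fold change of 0.75 ± 0.18 (SE), adjusted p = 0.0201; lost without WT replicate 3 or 4 or 5xFAD replicate 2 (adjusted p from 0.0552 to 0.0748) and in 1 other alternative) and Zbtb16 fell (log2 fold change of -0.51 ± 0.10 (SE), adjusted p = 0.00710) among 22 tested (4.55% in each direction, beside 6.37% higher and 2.01% lower), median 0.05. The higher count was 0 without WT replicate 3 or 4 or 5xFAD replicate 2, 2 without 5xFAD replicate 1, 3 without 5xFAD replicate 4 and 0 to 2 in the 9 other alternatives (0 with the 8 samples only). The lower count was 2 without 5xFAD replicate 1 or 3, 3 without WT replicate 2 and 1 in the 9 other alternatives. Of the circadian clock genes Arntl, the core activator, and Cry2, a repressor, fell among 22 tested (9.09%, beside 2.01%), median -0.07. Arntl was at 12.1, 10.8, 11.2 and 9.78 FPKM in WT and 7.54, 8.07, 8.49 and 8.73 FPKM in 5xFAD (log2 fold change of -0.41 ± 0.10 (SE), adjusted p = 0.0202; lost without WT replicate 1 or 3 or 5xFAD replicate 1 (adjusted p from 0.0532 to 0.0701) and in 1 other alternative). Cry2 was at 45.01, 47.1, 43.7 and 49.1 FPKM in WT and 32.4, 36.6, 35.7 and 33.1 FPKM in 5xFAD (log2 fold change of -0.41 ± 0.10 (SE), adjusted p = 0.0152; lost without WT replicate 4 (adjusted p = 0.0584)). In both clock genes every 5xFAD sample was below every WT sample, and the hour of dissection is not given in the sources used here. The number of clock genes that rose was 1 without 5xFAD replicate 4 and 0 in the 9 other alternatives. The number that fell was 1 without WT replicate 1, 3 or 4 and 1 to 2 in the 9 other alternatives (2 with the 8 samples only). Of heat shock and endoplasmic reticulum chaperones 1 of 36 tested rose (2.78%, beside 6.37%), Sdf2l1 (log2 fold change of 0.76 ± 0.20 (SE), adjusted p = 0.0283; lost without WT replicate 1, 3 or 4 or 5xFAD replicate 1 or 2 (adjusted p from 0.0549 to 0.0970) and in 2 other alternatives), and 0 fell, median 0.05. The higher count was 0 without WT replicate 1, 3 or 4 or 5xFAD replicate 1, 3 without WT replicate 2 or 5xFAD replicate 3, 4 without 5xFAD replicate 4 and 0 to 5 in the 9 other alternatives (0 with the 8 samples only). The lower count was 1 without 5xFAD replicate 4 and 0 in the 9 other alternatives.

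Genes known to differ between C57BL/6 substrains gave 0 calls in 6 tested, by edgeR, DESeq2 and limma, with a median of -0.04. These tests compare group means and do not show differences within a group. Gabra2 was at 37.62, 34.60, 20.73 and 18.01 FPKM in WT and 14.41, 15.82, 18.75 and 35.77 FPKM in 5xFAD. Entpd4 was also highest of 5xFAD in replicate 4, at 25.98 FPKM. Wdfy1 was at 3.81 FPKM in WT replicate 2 and 10.91 to 14.82 FPKM in the other WT samples. Ide was even, from 7.19 to 9.12 FPKM over both groups. The source of this spread was not tested. The Y chromosome genes Eif2s3y, Uty, Kdm5d and Ddx3y gave 0 calls in 4 by edgeR, DESeq2 and limma, with a median of 0.06. A test of group means does not check the sex of each sample, but the levels bear on it. Every sample held all 4 genes: the lowest value was 2.19 FPKM (Kdm5d, WT replicate 4), and Ddx3y ran from 9.45 to 12.96 FPKM. Xist and Tsix were not among the 22337 genes. Of all tested genes, 6.37% rose and 2.01% fell by edgeR. An unadjusted p below 0.05 was found for 1 of the 6 and 1 of the 4, and the number of substrain genes that fell was 2 without 5xFAD replicate 4 and 0 in the 9 other alternatives. Avp and Oxt, hypothalamic peptide genes of which Oxt was chosen after its values were seen, were highest in 5xFAD replicate 3. Avp was at 0.50, 0.86, 0.23 and 2.12 FPKM in WT and 6.97, 1.38, 33.5 and 1.04 FPKM in 5xFAD (log2 fold change of 3.50 ± 1.07 (SE), adjusted p = 0.0641), which did not pass. Oxt was at 0.08, 0.00, 0.00 and 0.10 FPKM in WT and 1.02, 0.08, 14.9 and 0.92 FPKM in 5xFAD, below the filter. By chromosome, the share of tested genes that rose ran from 3.01% on chromosome 18 to 9.21% on chromosome 19, and the share that fell from 0.722% on chromosome 7 to 4.48% on chromosome 16, over the autosomes and X.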
